A study of Homo sapiens with 2 samples.

Results

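Cluster 1 is 1 of the 6 groups of cells numbered 0 to 5 in the cell table that the authors deposited for MDA-MB-453, a long-established human line that the labels describe as triple-negative breast cancer. Its members were taken by that cluster number alone. They were 1317 of 5985 cells (22.01%), of which 728 were among the 3163 cells treated with IL1β and TNFα and 589 were among the 2822 cells given vehicle. Both cultures were wild type, were grown in DMEM with serum and were harvested after 24 hours with both cytokines at 10 ng/ml in one culture and water in the other. The 3′ ends of transcripts were sequenced cell by cell in droplets and counted by unique molecular identifiers (UMIs), and each condition was 1 library of 1 line. Without a second library of either condition the spread between cultures is unknown, so differences are given with no p-value.

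MDA-MB-453 cells express luminal keratins although they are classed as triple-negative. IL1β and TNFα both activate NF-κB, a transcription factor that switches on chemokines, acute phase proteins and its own inhibitors. Interferon-stimulated genes form a separate antiviral program that is driven by STAT and IRF factors through an element in their promoters. The study asked which cells of the culture induce TDO2, the enzyme that opens tryptophan (TRP) catabolism toward kynurenine, when NF-κB is activated.

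Cluster 1 held 23.02% of the cytokine-treated cells (exact 95% interval 21.6 to 24.5) and 20.9% of the vehicle-treated cells (19.4 to 22.4). Its cells summed to 15893687 UMIs in the cytokine library and 11630161 UMIs in the vehicle library. The median cluster 1 cell had 21214 UMIs and 3822.5 genes in the cytokine library, against 21596 UMIs and 3980 genes in the other cells. In the vehicle library it had 18964 UMIs and 3916 genes, against 20568 UMIs and 4135 genes. The median mitochondrial share was 7.31% in cluster 1 against 6.27% in the other cells of the cytokine library, and 6.90% against 6.15% in the vehicle library. In all, 8 barcodes occurred in both libraries, and 4 of the cells that carried them were in cluster 1. Levels are UMIs summed over cells and given as counts per 1000000 UMIs (CPM). All intervals are at 95% and reflect counting error alone, and all are exact except those of differences between log2 ratios.

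The 3 genes given as markers of cluster 1 were each higher in it than in the other cells, in both libraries. Because the clusters were made from the expression of these cells, that is a description of the cluster and not a test. S100P, a small calcium-binding protein of the S100 family, stood at 39.2 CPM in cluster 1 against 7.10 CPM in the other cells of the cytokine library, and at 53.2 CPM against 2.64 CPM in the vehicle library. It was 5.52-fold higher with cytokine and 20.2-fold higher with vehicle (log2 ratios 2.47, 2.28 to 2.65, and 4.33, 4.05 to 4.62). TFF1, a secreted trefoil peptide of luminal breast and gastric epithelium, stood at 1494 CPM against 902 CPM in the cytokine library and at 120 CPM against 46.1 CPM in the vehicle library (log2 ratios 0.73 and 1.38). ISG15, a ubiquitin-like protein induced by interferon, stood at 514 CPM against 181 CPM in the cytokine library and at 230 CPM against 91.0 CPM in the vehicle library (log2 ratios 1.51 and 1.34). S100P lies on chromosome 4 from 6693878 to 6697170, TFF1 on chromosome 21 from 42362282 to 42366535 and ISG15 on chromosome 1 from 1001138 to 1014540, all protein-coding genes in GRCh38.

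Cluster by cluster, the label held for S100P in both libraries and only in part for ISG15 and TFF1. S100P in the other 5 clusters ran from 2.91 to 12.6 CPM in the cytokine library and from 0.987 to 4.66 CPM in the vehicle library, all below cluster 1. ISG15 ran from 111 to 270 CPM and from 59.3 to 151 CPM in those clusters, all below cluster 1 when every cell was counted. With vehicle that place rested on a single cell, without which cluster 1 was at 125 CPM and cluster 3, at 151 CPM, lay above it. TFF1 was highest in cluster 3 of the cytokine library, at 2058 CPM, while in the vehicle library cluster 1 was above cluster 3, at 120 CPM against 86.3 CPM. Cluster 3 was the next highest cluster for all 3 genes in the vehicle library.

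**Figure D1:**
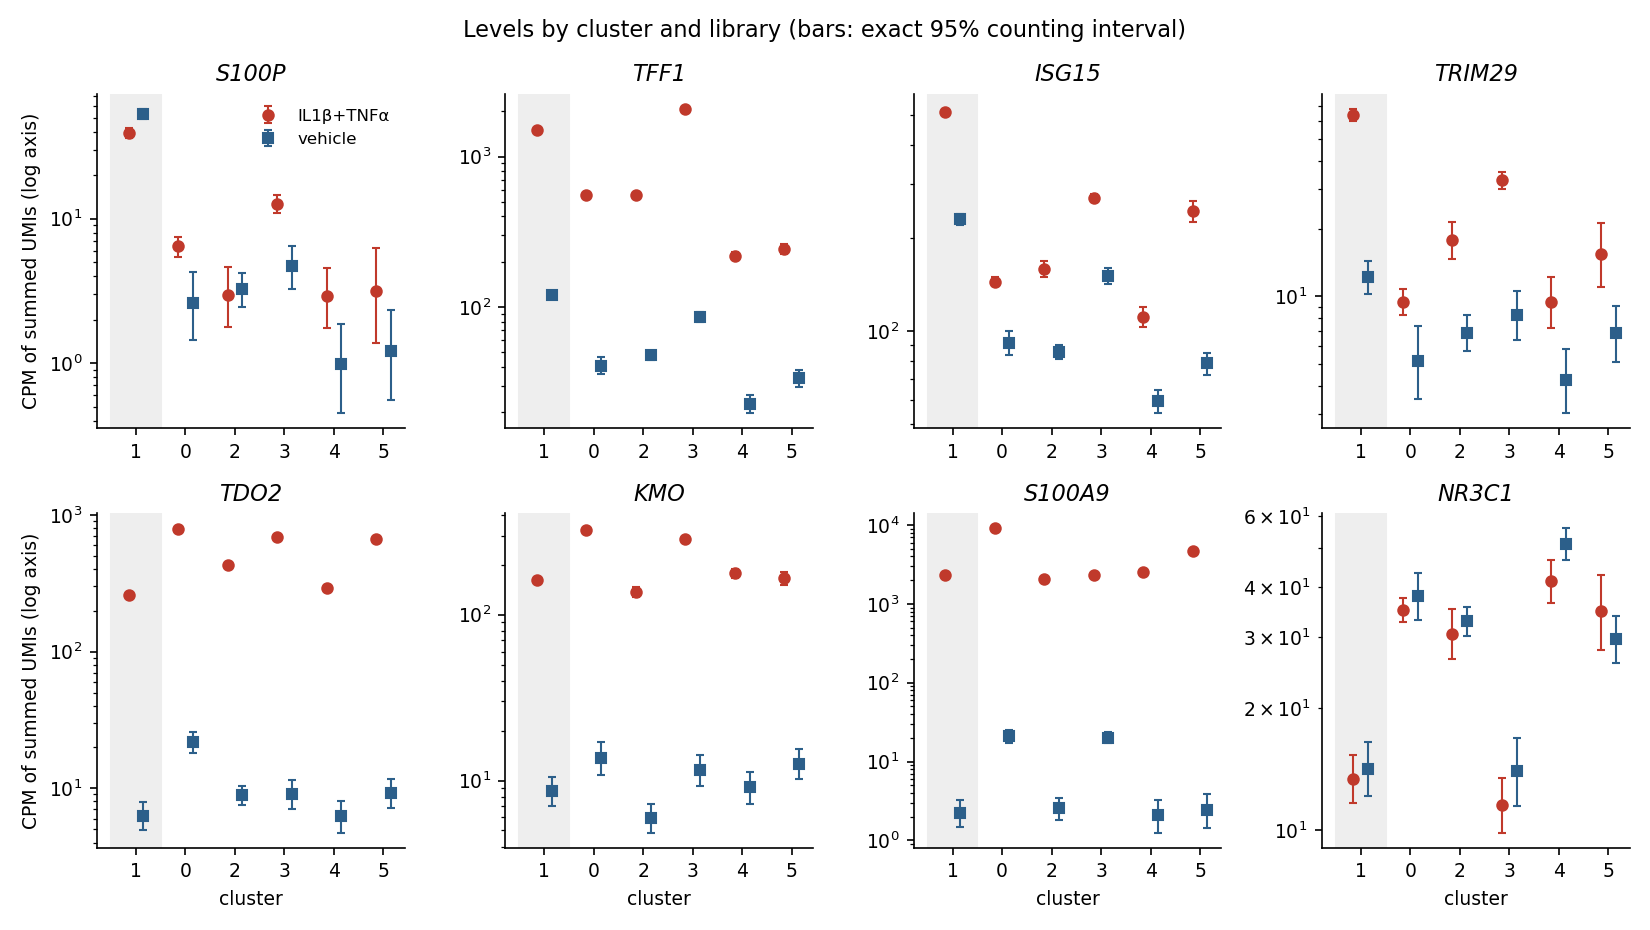
Levels of 8 genes in the 6 clusters, in CPM on a log axis, with the IL1β + TNFα library as red circles, the vehicle library as blue squares, exact 95% counting intervals as bars and cluster 1 shaded. S100P stands at 39.2 and 53.2 CPM in cluster 1, above every other cluster, while TDO2 with cytokine is lowest in cluster 1 at 260 CPM.

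Most cluster 1 cells had no S100P. Shares of cells were compared after drawing 15000 UMIs from every cell (thinning), without the shallower 30 and 72 cluster 1 cells and 100 and 164 other cells of the cytokine and vehicle libraries. S100P then had a UMI in 12.9% of cluster 1 cells (10.5 to 15.6) against 6.51% of the other cells with cytokine, and in 5.61% (3.79 to 7.96) against 1.93% with vehicle. Without thinning these shares were 15.1% against 8.05% and 6.96% against 2.55%. TFF1 had a UMI in 85.7% of cluster 1 cells against 71.2% of the other cells with cytokine, and in 34.4% against 24.7% with vehicle. ISG15 had a UMI in 85.2% against 76.2% with cytokine and in 78.9% against 69.2% with vehicle. Without thinning TFF1 was at 89.1% against 76.3% and 38.0% against 30.4%, and ISG15 at 90.8% against 83.9% and 85.6% against 77.9%. The line has no cell type that should lack these genes, so the part of free RNA in the low shares was not tested. All 3 markers were found together in 75 of 698 thinned cluster 1 cells (10.7%) against 114 of 2335 other cells (4.88%) with cytokine, and in 14 of 517 (2.71%) against 14 of 2069 (0.677%) with vehicle.

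The marker levels rested on few cells to very different degrees. In the cytokine library 10 of the 728 cluster 1 cells held 59.7% of the S100P UMIs, 33.3% of the ISG15 UMIs and 11.9% of the TFF1 UMIs. In the vehicle library 10 of the 589 cells held 89.7% of the S100P UMIs, 50.04% of the ISG15 UMIs and 54.9% of the TFF1 UMIs. Cells with at least 10 thinned S100P UMIs numbered 8 in cluster 1 against 1 among the other cells with cytokine, and 9 against 1 with vehicle. Without the 1% of cells with the most UMIs of each gene, a comparison chosen after seeing the data, the S100P log2 ratio was 2.15 with cytokine and 4.47 with vehicle, that of TFF1 was 0.81 and 1.12, and that of ISG15 was 1.22 and 0.45.

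The ISG15 level with vehicle rested largely on 1 cell. A vehicle-treated cluster 1 cell of 24724 UMIs carried 1229 of the 2678 ISG15 UMIs of the cluster (45.9%), and the next cell had 19. The same cell held 103 of 110 UMIs of IFIT1, 121 of 122 of IFIT3, 70 of 71 of IFIT2 and 119 of 120 of OASL, which are antiviral interferon-stimulated genes. It also held 28 of 32 UMIs of the chemokine CCL5, 14 of 15 of CXCL8, all 9 of IL6 and 52 of 63 of the keratin KRT17, but 0 of S100P and of TFF1. Without it ISG15 stood at 125 CPM in cluster 1 against 91.0 CPM in the other vehicle-treated cells (log2 ratio 0.46, 0.37 to 0.54), and IFI6 at 8.36 CPM against 3.26 CPM (1.36, 0.98 to 1.74). Without it IFIT1 was at 0.603 CPM in vehicle-treated cluster 1 against 0.192 CPM in the other cells, with an interval of the log2 ratio that included 0, and IFIT2, IFIT3 and OASL had 1 UMI each. The cytokine library also had such cells but leaned on them less, since its highest cell held 491 of 8165 ISG15 UMIs and 114 of 482 IFIT1 UMIs. That cell still held 60 of 140 UMIs of IFIT3, 109 of 256 of OASL, 22 of 65 of IFIT2 and 154 of 366 of CCL5. Without it ISG15 was at 483 CPM against 181 CPM (1.42, 1.38 to 1.46) and IFIT1 at 23.2 CPM against 2.42 CPM (3.26, 2.97 to 3.56).

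**Figure D2:**
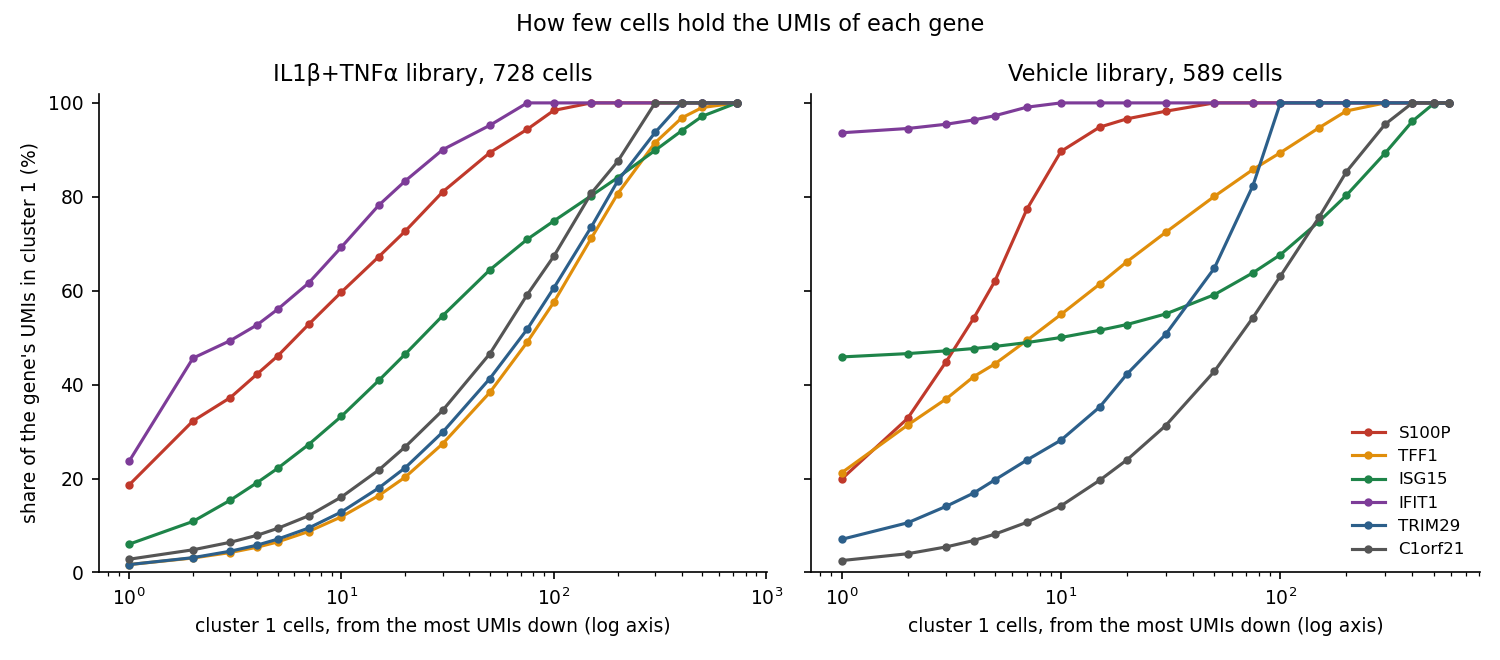
Share of each gene's cluster 1 UMIs held by the cells with the most of them, in percent against the number of cells on a log axis, for the IL1β + TNFα library on the left and the vehicle library on the right. The vehicle ISG15 and IFIT1 lines start at 45.9% and 93.6% with 1 cell, while 10 cells hold 16.1% and 14.2% of the C1orf21 UMIs.

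Many interferon-stimulated genes other than ISG15 were higher in cluster 1 with cytokine, and 1 was so with vehicle once the cell described above was left out. A gene counted as measured at 5 CPM or more on either side and as higher or lower when it differed at least 1.5-fold with its interval on the same side. By that rule 2.24% of 8687 measured genes were higher and 5.74% were lower in cluster 1 of the cytokine library, and 1.65% of 9144 were higher and 2.24% were lower in the vehicle library. Of 25 measured interferon-stimulated genes other than ISG15, 15 were higher and 1 was lower with cytokine, with a median log2 ratio of 0.77 against -0.06 over all measured genes, and the counts were the same without the cell with the most ISG15 UMIs. Some of the 15 reached 5 CPM only in cluster 1, such as IFIT1, IFIT3 and OASL, at 2.42, 0.205 and 2.05 CPM in the other cells. Such genes could come out as higher alone. With vehicle 6 of 18 were higher and 0 lower, but IFIT1, IFIT2, IFIT3 and OASL passed the 5 CPM limit only through the cell described above. Without that cell 13 were measured and 1, IFI6, was higher, with a median of 0.11. These counts without ISG15 and without the cell were added after seeing the data.

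IFI6, an interferon-induced protein of mitochondria, stood at 84.9 CPM in cluster 1 against 31.1 CPM in the other cells of the cytokine library, and at 14.4 CPM against 3.26 CPM in the vehicle library (log2 ratios 1.45 and 2.15). IFI27, from the same family, stood at 35.4 against 5.72 CPM with cytokine and at 2.06 against 0.639 CPM with vehicle. IFIT1, which binds viral RNA that lacks the usual cap modification, stood at 30.3 against 2.42 CPM with cytokine, a 12.5-fold difference. In that library 2 cluster 1 cells held 45.6% of the IFIT1 UMIs of the cluster. UBE2L6, the enzyme that conjugates ISG15 to proteins, stood at 34.0 against 14.7 CPM. Cells with at least 10 thinned UMIs of IFI6 made up 30 of 698 cluster 1 cells (4.30%) and 16 of 2335 other cells (0.685%) of the cytokine library. Across the 728 cytokine-treated cluster 1 cells the log-normalized levels of ISG15 had a Pearson r of 0.75 with IFI6 and of 0.67 with IFIT1, while ISG15 with S100P gave 0.02 and S100P with TFF1 gave 0.19. Cells of 1 library share its depth and preparation, so these values describe that library.

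Shown beside those of S100P and SERPINA3 are the promoters of ISG15, IFI6, IFIT1 and IFI27, which carry the element through which interferon signals act. They are the 150 bases before the RefSeq start of each gene in GRCh38.p14, at chr1:1013347-1013496 (+) for ISG15, chr1:27672193-27672342 (-) for IFI6, chr10:89392473-89392622 (+) for IFIT1, chr14:94110586-94110735 (+) for IFI27, chr4:6693728-6693877 (+) for S100P and chr14:94612241-94612390 (+) for SERPINA3. Capitals mark matches, merged where they overlap, to the core of the interferon-stimulated response element (GAAA, 2 bases of any kind and a second GAAA) and to an NF-κB motif (GGG, 5 bases of any kind and CC), both on either strand, and to the TATA box (TATAAA) on the gene's strand.
ISG15: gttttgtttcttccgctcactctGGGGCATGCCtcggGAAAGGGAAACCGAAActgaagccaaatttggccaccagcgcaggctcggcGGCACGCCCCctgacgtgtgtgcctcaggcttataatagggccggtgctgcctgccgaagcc
IFI6: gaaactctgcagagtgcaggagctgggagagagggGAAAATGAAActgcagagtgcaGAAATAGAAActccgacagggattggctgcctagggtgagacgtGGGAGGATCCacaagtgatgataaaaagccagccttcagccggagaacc
IFIT1: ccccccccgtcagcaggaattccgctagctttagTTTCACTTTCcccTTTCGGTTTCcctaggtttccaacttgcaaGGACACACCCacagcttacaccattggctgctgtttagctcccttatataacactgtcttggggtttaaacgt
IFI27: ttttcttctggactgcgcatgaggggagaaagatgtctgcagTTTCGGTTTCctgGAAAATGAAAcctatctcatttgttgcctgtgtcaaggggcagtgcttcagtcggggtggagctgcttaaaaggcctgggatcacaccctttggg
S100P: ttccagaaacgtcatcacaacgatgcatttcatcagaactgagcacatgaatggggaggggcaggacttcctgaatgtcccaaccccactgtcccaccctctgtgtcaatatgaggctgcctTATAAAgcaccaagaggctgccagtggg
SERPINA3: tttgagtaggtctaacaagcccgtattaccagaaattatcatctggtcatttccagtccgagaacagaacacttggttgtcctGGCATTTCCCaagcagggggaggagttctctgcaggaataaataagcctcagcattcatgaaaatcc

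Each of the 4 interferon-stimulated promoters held the response element core. Shares of genes with a match were counted over whole promoter windows, which reach beyond the 150 bases shown. The core occurred in 25 of the 33 genes of the interferon-stimulated list that have a promoter window (75.8%), against 4.38% of all 27305 genes with one. Among the 18 genes with a window from the named genes with the highest ratios over the other cells it occurred in 5 (27.8%), namely ISG15, IFI6, IFIT1, IFI27 and EDN1. S100P had a TATA box, which 8.99% of all genes had, and neither other element in the stretch shown, and SERPINA3 held the NF-κB motif alone. The same stretches of IGFL1 and TDO2, not printed, held no match. The NF-κB motif was in 16 of those 18 genes (88.9%) but also in 61.7% of all genes. IFI27 counted among the 16 although the stretch shown for it held no such match. The palindromic estrogen response element (GGTCA, 3 bases of any kind, TGACC) was found in 0 of the 18, and in 0.0732% of all genes. Only 18 of the 27 named genes with the highest ratios had a window. TFF1 had none, so its promoter was not searched for any motif. A match is a description of the letters, not of binding.

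Inflammatory genes were uneven in cluster 1 of the cytokine library. Among cytokines and chemokines 11 of 17 measured genes were higher and 0 lower, with a median log2 ratio of 0.81. Some of them, such as CCL5 and IL6, reached 5 CPM only in cluster 1 and so could come out as higher alone. LTB, a membrane-bound TNF family cytokine, stood at 400 CPM in cluster 1 against 236 CPM in the other cells, and CCL2, the monocyte chemokine, at 185 CPM against 91.2 CPM. CCL5, a T cell chemokine, stood at 23.03 against 1.81 CPM (log2 ratio 3.67, and 1.85 without the 1% of cells with the most UMIs), and IL6 at 8.18 against 0.503 CPM. CXCL8, the neutrophil chemokine, was at 141 against 99.9 CPM and TNF at 37.4 against 37.7 CPM, neither past 1.5-fold. CXCL10 was higher with all cells (log2 ratio 0.99) and lower without its top cells (-0.96). Of 18 NF-κB subunits and feedback inhibitors 0 were higher or lower, with a median of 0.14, and NFKBIA, the main inhibitor, stood at 887 against 1122 CPM. Of 18 other NF-κB targets 4 were higher and 0 lower, with a median of 0.22. BIRC3, an NF-κB-induced inhibitor of cell death, was at 68.4 against 30.4 CPM.

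Other genes were also higher in cytokine-treated cluster 1. TRIM29, a tripartite motif protein of basal and squamous epithelium, stood at 64.0 CPM against 17.0 CPM and had a UMI in 43.1% of thinned cluster 1 cells against 18.9% of the others. SERPINA3, an acute phase protease inhibitor, stood at 109 against 36.7 CPM and had a UMI in 36.7% against 22.1%. IGFL1, a secreted insulin growth factor-like peptide, stood at 35.1 against 4.21 CPM and had a UMI in 13.2% against 3.81%. Across cytokine-treated cluster 1 cells IGFL1 had an r of 0.36 with SERPINA3 and 0.27 with S100P. CDKN1A, the p21 inhibitor of cyclin-dependent kinases, stood at 29.6 against 12.9 CPM, and BBC3, a p53-induced mediator of cell death, at 18.0 against 6.57 CPM. KRT81, a hair keratin, stood at 41.3 against 12.5 CPM and had a UMI in 5.16% against 4.33% of thinned cells, and without the 1% of cells with the most UMIs its log2 ratio was 0.59 in place of 1.73.

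Of 11 measured acute phase and antimicrobial genes 2 were higher and 3 were lower in cytokine-treated cluster 1, with a median of -0.20. S100A8 and S100A9, which form the calprotectin dimer, stood at 1654 and 2333 CPM in cytokine-treated cluster 1 against 3951 and 5418 CPM in the other cells (log2 ratios -1.26 and -1.22). S100A9 was at 9061 CPM in cluster 0 and 4626 CPM in cluster 5, while clusters 2, 3 and 4 stood between 2069 and 2541 CPM, near cluster 1. At least 10 thinned S100A9 UMIs were found in 64.8% of cluster 1 cells against 81.5% of the others. LCN2, an iron-sequestering protein, stood at 25.1 against 49.6 CPM and SAA1, serum amyloid A, at 157 against 180 CPM.

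TDO2 and KMO of TRP catabolism were lower in cytokine-treated cluster 1, and KYNU was not. TDO2 stood at 260 CPM (252 to 268) in cytokine-treated cluster 1, the lowest of the 6 clusters, against 652 CPM in the other cells (log2 ratio -1.33, -1.37 to -1.28). Cluster 4 was next at 293 CPM, and clusters 0, 2, 3 and 5 ran from 432 to 788 CPM. With vehicle TDO2 stood at 6.28 against 10.1 CPM (-0.68, -1.06 to -0.32), a difference that rested on 73 UMIs in cluster 1 and was -0.39 without the 1% of cells with the most UMIs. There cluster 0 was at 21.7 CPM, while clusters 2, 3, 4 and 5 ran from 6.25 to 9.22 CPM. TDO2 had a UMI in 55.7% of thinned cytokine-treated cluster 1 cells against 72.1% of the others, and at least 10 UMIs in 11.03% against 32.6%. KMO, which hydroxylates kynurenine, stood at 162 against 267 CPM with cytokine (-0.72, -0.78 to -0.66) and at 8.68 against 9.48 CPM with vehicle. With cytokine KMO was at 138, 178 and 166 CPM in clusters 2, 4 and 5, near cluster 1, and at 325 and 286 CPM in clusters 0 and 3. KYNU, the kynureninase, stood at 77.8 against 67.6 CPM with cytokine and at 6.28 against 3.54 CPM with vehicle. IDO1, the other enzyme that can open the pathway, had 0 UMIs in cytokine-treated and 2 UMIs in vehicle-treated cluster 1. Of 9 measured genes of TRP and kynurenine handling 0 were higher and 3 were lower with cytokine, with a median of -0.28.

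The aryl hydrocarbon receptor (AhR), which kynurenine can bind, was higher in cluster 1 in both libraries, and its targets were uneven. AHR itself stood at 10.9 CPM in cluster 1 against 5.05 CPM in the other cells with cytokine, and at 8.34 against 5.41 CPM with vehicle. CYP1B1, a classical AhR target, stood at 106 against 56.1 CPM with cytokine and at 109 against 82.9 CPM with vehicle, and TIPARP, a target that feeds back on the receptor, at 8.997 against 5.96 CPM and 10.7 against 8.65 CPM. NQO1, a quinone reductase that NRF2 also controls, was the opposite, at 669 against 1214 CPM and 552 against 708 CPM, though cluster 4 was lower still, at 578 and 404 CPM. For AHR the next highest cluster was cluster 4 at 7.20 CPM with cytokine and cluster 3 at 7.64 CPM with vehicle. For CYP1B1 it was cluster 2, at 79.4 and 92.8 CPM. TIPARP was higher than in cluster 1 in cluster 5 with cytokine, at 9.50 CPM, and in cluster 3 with vehicle, at 11.3 CPM. Counting AHR itself, 3 of 6 measured members were higher and 1 was lower with cytokine, and with vehicle AHR alone was higher and 0 were lower.

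Epithelial genes did not all move alike. FOXA1, a pioneer factor of luminal cells, was at 161 against 141 CPM and ERBB2 at 234 against 200 CPM with cytokine. EPCAM, an epithelial adhesion protein, stood at 139 against 273 CPM with cytokine and at 166 against 242 CPM with vehicle. KRT8, a luminal keratin, was at 710 against 1176 CPM with cytokine and at 318 against 333 CPM with vehicle. Cluster 4 was about as low as cluster 1 for EPCAM, at 126 and 167 CPM, and lower for KRT8, at 610 and 196 CPM. Of the other cell type markers searched, most were not among the genes of the table. COL1A1, a collagen of fibroblasts, stood at 23.6 CPM in cluster 1 with cytokine and 25.8 CPM with vehicle, and the summed fibroblast and endothelial markers were at 23.8 against 19.2 CPM and 25.8 against 19.7 CPM. Of 9 T, B and NK cell markers 1 was in the table, CD79A, at 0.0629 and 0.172 CPM in cytokine- and vehicle-treated cluster 1, the highest of 3 myeloid markers was 2.83 CPM, and the highest of 4 basal markers was 5.42 CPM, for KRT17 with vehicle, of which the cell described above held 52 of 63 UMIs.

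NR3C1, the glucocorticoid receptor, was among the genes lower in cluster 1 in both libraries to a like degree. It stood at 13.4 CPM against 29.0 CPM with cytokine and at 14.2 CPM against 33.5 CPM with vehicle (log2 ratios -1.12, -1.33 to -0.91, and -1.24, -1.48 to -1.01). It had a UMI in 16.2% of thinned cluster 1 cells against 34.3% of the others with cytokine and in 20.1% against 36.4% with vehicle. Cluster 3 was as low, at 11.5 and 13.99 CPM, while clusters 0, 2, 4 and 5 ran from 29.7 to 51.1 CPM. C1orf21, a gene of little known function, went the other way, at 47.0 against 19.1 CPM with cytokine and 88.6 against 37.4 CPM with vehicle, and cluster 3 was again next to cluster 1, at 73.1 CPM with vehicle. LMO4, a LIM-domain regulator of mammary epithelium, stood at 92.6 against 41.9 CPM and 128 against 69.1 CPM. IGFBP5, which binds insulin-like growth factors, stood at 123 against 73.4 CPM and 560 against 310 CPM. PEG10, a retrotransposon-derived imprinted gene, stood at 377 against 245 CPM and 1078 against 607 CPM. The next highest cluster for LMO4 was cluster 3, at 63.7 CPM with cytokine and 93.9 CPM with vehicle. For IGFBP5 it was cluster 5 at 121 CPM with cytokine and cluster 3 at 442 CPM with vehicle. For PEG10 it was cluster 2, at 308 and 667 CPM.

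**Figure D3:**
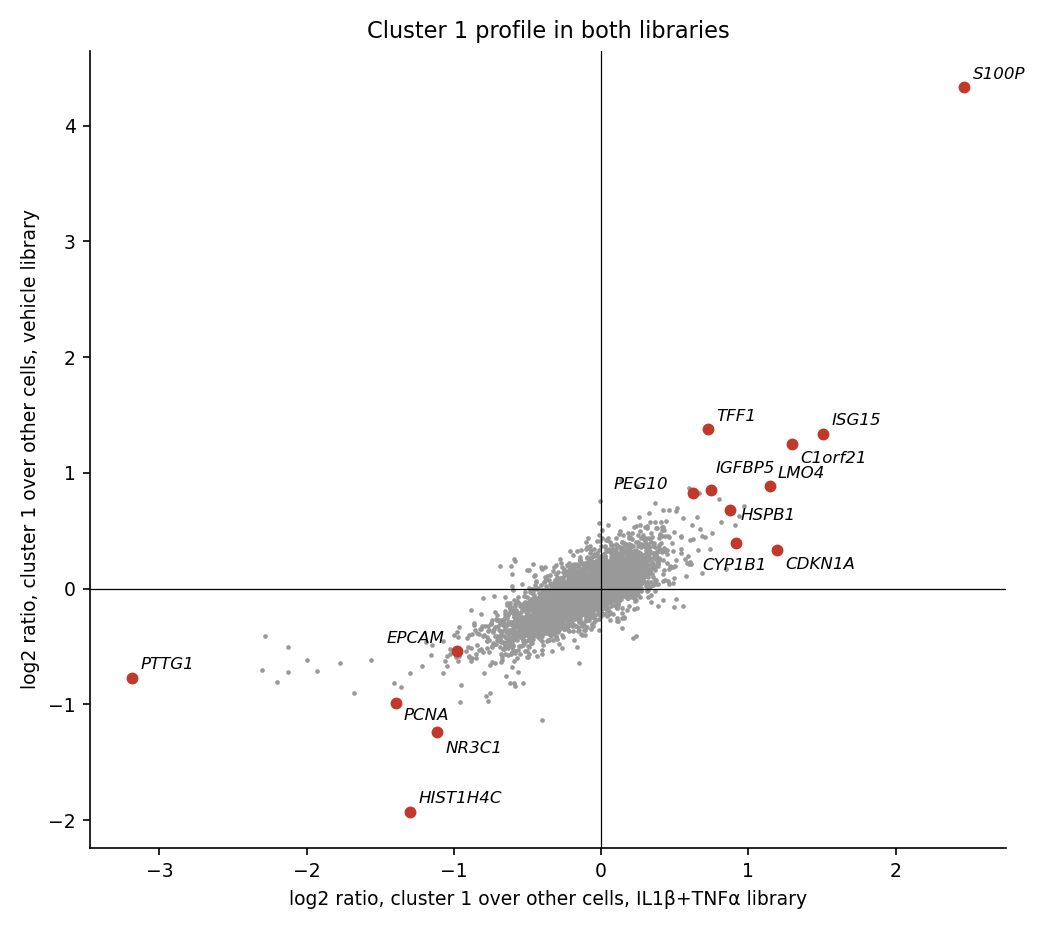
Log2 ratio of cluster 1 over the other cells in the IL1β + TNFα library (horizontal) and in the vehicle library (vertical) for 4278 genes at 20 CPM or more in both comparisons, 1 point a gene, with some of the named genes in red. S100P lies at 2.47 and 4.33, apart from the rest, and PTTG1 at -3.19 and -0.77.

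The 2 libraries shared part of the profile. Cells of both carry the same cluster number, given by their expression, so the sharing describes the cluster and is no test of agreement. Of the genes higher in cluster 1, 56 were so in both libraries, which is 28.7% of the 195 with cytokine and 37.1% of the 151 with vehicle. Over all measured genes 2.24% were higher with cytokine and 1.65% with vehicle. The 56 include ISG15, IFIT1, IFIT3, OASL and DDX58. These were not counted as higher with vehicle once the vehicle-treated cell with the most ISG15 UMIs was left out, while IFI6 was. Of the genes lower, 101 were so in both, which is 20.2% of the 499 with cytokine and 49.3% of the 205 with vehicle, and 0 genes were called in opposite directions. Over all measured genes 5.74% were lower with cytokine and 2.24% with vehicle. With TMM scaling the share of higher genes among those called was 38.2% in place of 28.1% with cytokine and 30.03% in place of 42.4% with vehicle. With totals that leave out ribosomal and mitochondrial genes it was 44.1% with cytokine, and among G1 cells it was 53.6% with vehicle. Without clusters 2 and 5 among the other cells, a comparison chosen after seeing the data, 213 genes were higher and 416 lower with cytokine, of which 182 and 333 were in the counts above. With vehicle 163 were higher and 150 lower, of which 109 and 67 were in the counts above.

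Cell cycle genes were lower in cluster 1 than in all other cells, a difference that few of them kept without clusters 2 and 5. Of 34 measured S phase genes 28 were lower in cytokine-treated cluster 1 and 0 were higher, with a median log2 ratio of -1.31, and with vehicle 20 of 42 were lower and 0 higher, with a median of -0.58. Of the G2 and M phase genes 17 of 29 and 14 of 54 were lower, with medians of -0.65 and -0.44. Genes under 5 CPM in cluster 1 were measured only through the other cells and could come out as lower alone. Without clusters 2 and 5, a comparison added after seeing the data, 1 of 20 and 1 of 40 S phase genes and 0 of 18 and 0 of 52 G2 and M phase genes were lower with cytokine and with vehicle. PCNA, the DNA polymerase clamp, stood at 19.1 against 50.3 CPM with cytokine and 68.6 against 136 CPM with vehicle. MKI67, a proliferation antigen, stood at 1.82 against 14.6 CPM and 89.0 against 145 CPM. Clusters 0 and 3 were not above cluster 1 for MKI67, at 1.47 and 1.74 CPM with cytokine and 64.5 and 62.8 CPM with vehicle, while clusters 2 and 5 were at 89.8 and 55.8 CPM with cytokine and 212 and 199.9 CPM with vehicle. PTTG1, securin, stood at 2.64 against 24.1 CPM and 103 against 175 CPM. The phase calls on thinned counts were scored from the same S phase and G2 and M phase lists. They restate those genes and are no separate support. On thinned counts 96.8% of cytokine-treated cluster 1 cells were called G1 against 83.9% of the others, and 0 of 698 were called G2M, which allows a share of up to 0.527%. With vehicle 40.0% were called G1 against 21.99%, and the deposited calls gave 52.8% against 32.3%.

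The other cells include cluster 2, in which 1.06% of cytokine-treated and 0% of vehicle-treated cells had a deposited G1 call, and cluster 5, with 40.3% G2M calls in the vehicle library. Clusters 0, 3 and 4 of the vehicle library had 49.1%, 47.3% and 43.3% G1 calls, close to the 52.8% of cluster 1. Among cells with a G1 call PCNA had a log2 ratio of -0.59 with cytokine and -0.25 with vehicle, in place of -1.40 and -0.99. S100P, TFF1, TDO2 and NR3C1 kept their direction among G1 cells, at 2.35, 0.64, -1.38 and -1.09 with cytokine and at 5.24, 2.10, -1.54 and -0.98 with vehicle. ISG15 was at 1.51 with cytokine and 0.31 with vehicle.

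**Figure D4:**
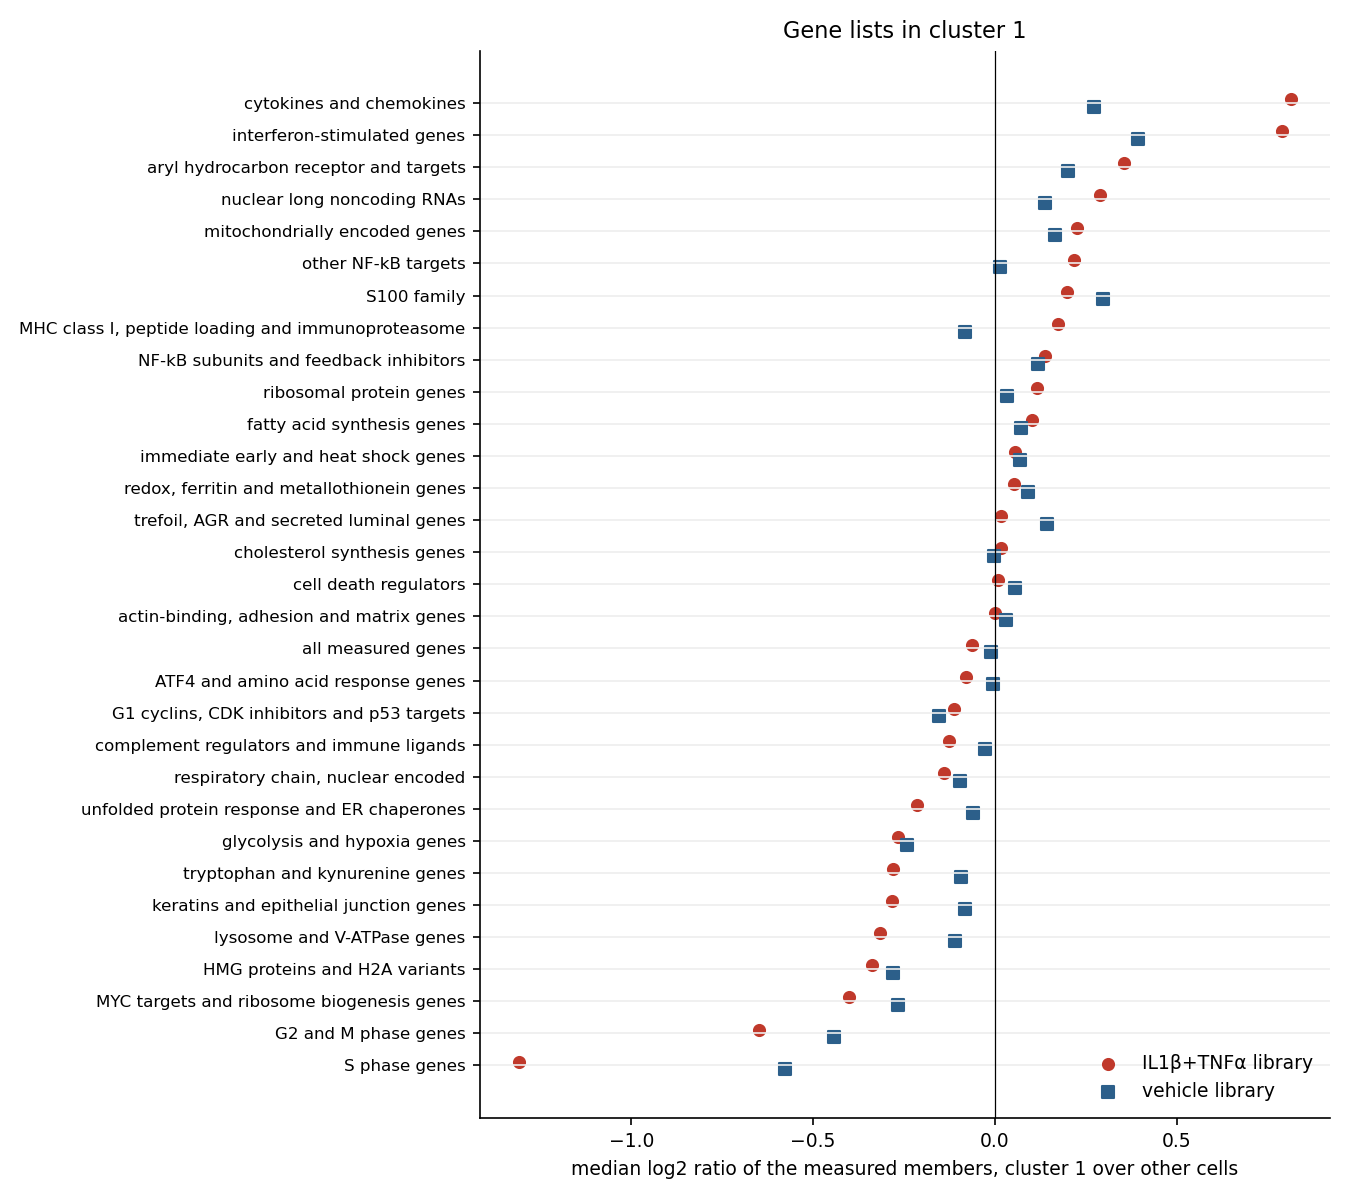
Median log2 ratio of the measured members of each gene list shown, cluster 1 over the other cells, for the IL1β + TNFα library (red circles) and the vehicle library (blue squares), with all measured genes as a row of their own. Cytokines and interferon-stimulated genes stand highest with cytokine at 0.81 and 0.79, and S phase genes lowest at -1.31 and -0.58.

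Genes on chromosome 8 beyond 30 Mb were lower as a block in cluster 1. Their median log2 ratio lay below that of all genes by 0.24 with cytokine over 125 genes and by 0.28 with vehicle over 137 genes. The median cell drew 2.16% of its UMIs from 352 such genes in cytokine-treated cluster 1 and 2.31% in vehicle-treated cluster 1, close to cluster 3 at 2.08% and 2.28% and below cluster 0 at 3.04% and 3.44%.

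Within cluster 1 the cytokine library was then set against the vehicle library. A limit of 2-fold was used, again with the interval on the same side, and 4.29% of 9268 measured genes were higher and 8.37% were lower with cytokine. In the other cells the shares were 4.33% and 7.27%. Over all measured genes of cluster 1 the log2 ratio had a median of -0.24, which became 0.02 with TMM scaling and 0.01 with DESeq2 size factors, so ratios near 0 depend on the scaling, and the share of higher genes among those called was 33.9% with library totals, 55.1% with TMM and 53.6% with DESeq2. Several secreted inflammatory proteins had no UMI with vehicle. LTB stood at 400 CPM with cytokine and had 0 UMIs with vehicle, at least 1551-fold higher against a floor of 3 UMIs. SAA1 at 157 CPM was at least 608-fold higher, SERPINA3 at 109 CPM at least 424-fold, PI3 (elafin, an elastase inhibitor) at 99.7 CPM at least 387-fold and TNF at 37.4 CPM at least 145-fold, each against 0 UMIs with vehicle. S100A9 stood at 2333 CPM against 2.24 CPM (log2 ratio 10.03) and S100A8 at 1654 CPM against 0.430 CPM, which was 5 UMIs.

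By group, 10 acute phase and antimicrobial genes, of 24 listed and 16 in the table, were higher with cytokine in cluster 1, as were 12 cytokines and chemokines of 30 listed and 20 in the table. Only with cytokine did 9 of the 10 measured acute phase genes and 11 of the 17 measured cytokines reach 5 CPM, so these could differ in that direction alone. Of 18 measured NF-κB subunits and feedback inhibitors 11 were higher. NFKBIA stood at 887 against 73.9 CPM and SOD2, the mitochondrial superoxide dismutase, at 163 against 13.2 CPM. Of 16 genes of MHC class I, peptide loading and the immunoproteasome 12 were higher, with HLA-B at 44.1 against 2.58 CPM and PSMB9 at 21.5 against 1.38 CPM. Of 27 interferon-stimulated genes 17 were higher, with IFI27 at 35.4 against 2.06 CPM and UBE2L6 at 34.0 against 3.18 CPM. These 3 counts too include genes that reached 5 CPM only with cytokine and could come out as higher alone. HLA-B, PSMB9, IFI27 and UBE2L6 are such genes, as is the NF-κB subunit RELB, at 31.8 against 0.516 CPM. The 776 lower genes included 35 of 38 measured S phase and 48 of 52 G2 and M phase genes, with TOP2A, the topoisomerase of dividing cells, at 0.755 against 53.1 CPM. Genes that, like TOP2A, reached 5 CPM only with vehicle could come out as lower alone. IGFBP5 stood at 123 against 560 CPM, PEG10 at 377 against 1078 CPM and MT2A, a metallothionein, at 527 against 2482 CPM. GATA3, a luminal transcription factor, stood at 310 against 635 CPM.

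Of 10 measured TRP and kynurenine genes 3 were higher and 1 was lower with cytokine in cluster 1, with a median of -0.08. TDO2 had a log2 ratio of 5.37 (5.04 to 5.73) in cluster 1 and 6.02 in the other cells, KMO of 4.22 and 4.81, and KYNU of 3.63 and 4.26. Cluster 1 minus the other cells, these ratios differed by -0.65 (-1.005 to -0.29), -0.59 (-0.91 to -0.27) and -0.63 (-1.03 to -0.22). Among cells with a G1 call, a comparison added after seeing the data, the differences were 0.16 (-0.39 to 0.72) for TDO2, -0.47 (-0.92 to -0.03) for KMO and -0.26 (-0.86 to 0.35) for KYNU, so the sign for TDO2 turned. Over all cells the 3 rested on 73 to 101 UMIs in vehicle-treated cluster 1. Among G1 cells they rested there on 30 UMIs for TDO2, 56 for KMO and 35 for KYNU. Differences of this kind were counted at 1.5-fold with at least 10 UMIs in each of the 4 sums, and by that rule 1.05% of 9325 genes had a higher and 3.4% a lower cytokine ratio in cluster 1. The differences cover counting error only and have no replicate. The other cells were also not the same mix in both libraries. Cluster 0 was 34.8% of all cytokine-treated and 10.03% of all vehicle-treated cells, and cluster 2 was 8.98% and 26.2%. How much of the differences came from that mix was not tested.

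**Figure D5:**
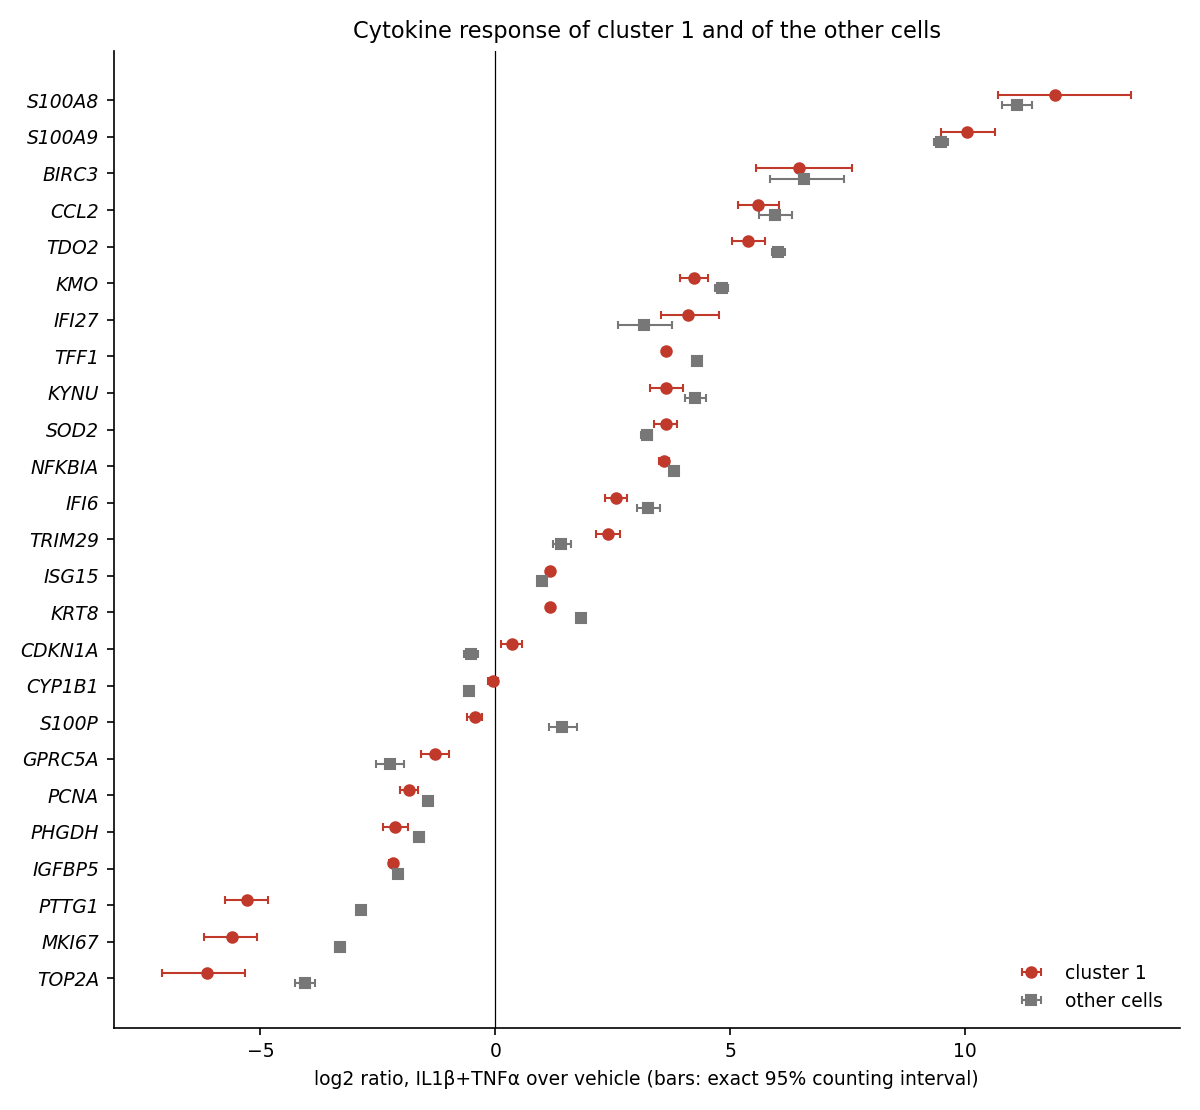
Log2 ratio of the IL1β + TNFα over the vehicle library in cluster 1 (red circles) and in the other cells (grey squares), with exact 95% counting intervals as bars. TDO2 stands at 5.37 in cluster 1 and 6.02 in the other cells, S100P at -0.44 and 1.43, and MKI67 at -5.61 and -3.31.

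The markers of cluster 1 responded each in its own way. TFF1 had a cytokine log2 ratio of 3.64 in cluster 1 and 4.29 in the other cells, and ISG15 of 1.16 and 0.99. Without the vehicle cell that held 45.9% of its UMIs in cluster 1, the ISG15 ratio there was 2.04. S100P was at -0.44 (-0.60 to -0.28) in cluster 1 and 1.43 (1.13 to 1.73) in the other cells, and in cluster 1 it was at -0.18 with TMM scaling and 0.11 without the 1% of cells with the most UMIs, so its direction there was not settled. Genes with a higher cytokine ratio in cluster 1 included TRIM29, at 2.39 against 1.41, CDKN1A, at 0.34 against -0.52, and ITGAV, an integrin subunit, at 1.53 against 0.76. MGP, an inhibitor of calcification, was at -0.62 against -1.72, and KRT81, which had 11 UMIs in vehicle-treated cluster 1, was at 5.45 against 4.02. The 10 genes with the most negative differences were genes of replication and mitosis such as GTSE1 at -6.58 against -3.26, MKI67 at -5.61 against -3.31 and DTL at -4.18 against -1.87. Cluster 1 minus the other cells, these 3 differed by -3.31, -2.30 and -2.32, and each rested on 13 to 29 UMIs in cytokine-treated cluster 1. In the sum of clusters 0, 3 and 4, a comparison added after seeing the data, the ratios were -5.97, -5.67 and -3.94 for GTSE1, MKI67 and DTL, while those of MKI67 were -1.24 in cluster 2 and -1.84 in cluster 5.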

How the data were processed

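Raw UMI counts of each gene in each cell were deposited by the authors, who made them with Cell Ranger 3.1.0 against GRCh38. In Seurat 4.0.4 they had kept cells under 50000 UMIs, between 3000 and 5000 genes and under 15% mitochondrial UMIs, and genes found in at least 10 cells. Their deposited cell table gives the percent of mitochondrial UMIs, the scores for S and G2M, the phase and the cluster of every cell. The deposited scores were not used, and how the clusters were made is not given in the sources used here. The sums and gene numbers of all 5985 cells were equal to those of the cell table.

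UMIs were summed over cells of cluster 1 and over all other cells, by library, and divided by each total. Log2 ratios have exact conditional binomial intervals, CPM exact Poisson intervals and shares exact Clopper-Pearson intervals. These cover counting error only, neither the spread between cultures nor, for CPM and ratios, between cells. Differences of log2 ratios have delta-method intervals. For list medians a gene at 0 was set to 3 UMIs. Thinned counts were given phases by scanpy 1.11.5. Correlations used ln(1 + 10000 × the fraction of the cell's UMIs). No doublet caller was run, since the material is 1 line. Gene positions are from GENCODE 44 and promoters from RefSeq, GRCh38.p14.

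The cells and the 38 gene lists were chosen with earlier results of these data known. Named genes were the 3 markers, a fixed set of 18 TRP, cytokine, cell cycle and luminal genes, the 15 highest and 15 lowest log2 ratios at 20 CPM or more in each library and within cluster 1, the 10 highest and 10 lowest differences of the cytokine ratio, and up to 4 members of each list. IFIT2 and IFIT3 were also followed because they shared a cell with ISG15. Alternatives were TMM (edgeR 4.0.16) and DESeq2 1.42.0 scaling, totals without ribosomal and mitochondrial genes, mean per-cell CPM, G1 cells, a mitochondrial limit of 10%, other CPM and fold limits, cluster 0 alone as the comparison, other clusters weighted equally, thinning to 7500 UMIs and, chosen after seeing the data, leaving out the 1% of cells with the most UMIs of each gene leaving out clusters 2 and 5, leaving out ISG15 and the cell with the most ISG15 UMIs, and cytokine ratios by cluster and among G1 cells. The scripts were tested on simulated data. Results of 1 gene and of a list that holds it are not reported here.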

Additional observations from a re-analysis of the deposited data

Results flagged for a closer look

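Some results pointed in opposite directions in groups under the same contrast. The differences were not tested, since each condition was 1 library.

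The cytokine log2 ratio of S100P was -0.44 in cluster 1 and 1.43 in the other cells, and with TMM scaling -0.18 and 1.59. That of CDKN1A was 0.34 and -0.52 (TMM 0.61 and -0.35). IFIT2, at 65 and 71 UMIs in cytokine- and vehicle-treated cluster 1, was at -0.58 and 3.27, and 70 of the 71 UMIs were in 1 cell.

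For DNAJB11, an ER chaperone, the ratio was -0.25 in cluster 1 and 0.15 in the other cells, but 0.02 and 0.32 with TMM. For EPCAM it was -0.26 and 0.18, but 0.00 and 0.34 with TMM. JUP, plakoglobin, was at -0.30 and 0.07 (TMM -0.03 and 0.24) and RPL7, a ribosomal protein, at 0.12 and -0.03 (TMM 0.39 and 0.13). The opposite signs of DNAJB11, EPCAM and RPL7 were thus not kept under TMM.

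The cluster 1 log2 ratio of GATA3 was -0.13 in the cytokine library and 0.15 in the vehicle library, that of KRT7 -0.45 and 0.12, and that of SLPI, a secreted protease inhibitor, -0.11 and 0.40. None of these 3 was past 1.5-fold in either library.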

How the results depend on the processing

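With 1 library per condition no result has a test, and precision is limited by counting error and by the few cells behind several genes. Over all named log2 ratios and alternatives 5007 values moved by less than their counting interval, 1166 moved by more and 10 had the opposite sign, and of the list medians 483 stayed and 5 moved. The cause was not tested for any of these changes, except that stricter limits leave fewer genes. No paired analysis was possible because each condition was 1 library.

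Genes higher in cluster 1 with cytokine, 195 in the report, numbered 420 at a limit of CPM 1, 69 at CPM 20, 58 at 2-fold and 373 against cluster 0 alone. Those lower, 499, numbered 330 with totals without ribosomal and mitochondrial genes, 790 at CPM 1, 262 at CPM 20 and 108 at 2-fold. With vehicle, 151 higher became 241 among G1 cells, 393 at CPM 1, 34 at CPM 20, 38 at 2-fold and 459 against cluster 0, and 205 lower became 311 at CPM 1, 98 at CPM 20, 26 at 2-fold and 497 against cluster 0. Within cluster 1, 398 higher with cytokine became 603 with TMM, 662 at CPM 1, 219 at CPM 20 and 768 at 1.5-fold, and 776 lower became 492 with TMM, 503 with DESeq2, 484 among G1 cells, 1272 at CPM 1, 325 at CPM 20 and 2083 at 1.5-fold. Differences of the cytokine ratio, 98 higher and 317 lower, became 21 and 142 at CPM 20 and 10 and 98 at 2-fold.

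Cluster 1 was 25.4% of the G1 cells with cytokine and 30.1% with vehicle, and the deposited calls gave 52.8% G1 with vehicle. The share of cluster 1 cells with S100P was 8.79% at 7500 UMIs and 6.59% for at least 2 UMIs with cytokine, and 2.71% for at least 2 UMIs with vehicle. For TFF1 it was 76.6%, 89.1% (not thinned) and 75.1% with cytokine, and 23.6% and 18.4% with vehicle. For ISG15 it was 67.6%, 90.8% and 64.8% with cytokine, and 54.7%, 85.6% and 51.5% with vehicle.

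Among G1 cells the sign turned for HIST1H4C (0.16), HIST2H2AC (0.0149), EXO1 (0.24), AURKB (0.24), NDC80 (1.24) and IFIT3 (-0.35) with vehicle, for CDC45 (0.57) and ASPM (0.94) with cytokine, and for CDKN2D between the libraries within cluster 1 (0.14). The difference of the cytokine ratio of TDO2 turned among G1 cells (0.16). Without the top 1% of cells the sign turned for CXCL10 with cytokine (-0.96).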

Other observations

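Of 34 measured MYC target and ribosome biogenesis genes 1 was higher and 9 were lower with cytokine, with a median log2 ratio of -0.40, and 0 of 35 were higher and 2 were lower with vehicle, with a median of -0.27. BOP1, a factor of large ribosomal subunit assembly, stood at 12.8 CPM against 23.7 CPM with cytokine and at 24.2 against 37.2 CPM with vehicle. HSP90AA1, a chaperone, stood at 632 against 1094 CPM and 835 against 1383 CPM. Of glycolysis and hypoxia genes 3 of 19 were lower with cytokine and 0 of 20 with vehicle, with medians of -0.27 and -0.24, and ENO1, the glycolytic enolase, stood at 495 against 848 CPM and 398 against 566 CPM. Cluster 4 was below cluster 1 for HSP90AA1, at 549 and 752 CPM, and for ENO1, at 404 and 370 CPM. Of amino acid response and ATF4 target genes 2 of 19 were higher and 1 was lower with cytokine, and 2 of 21 were higher and 0 lower with vehicle. PHGDH, the first enzyme of serine synthesis, stood at 10.1 against 20.6 CPM and 44.3 against 63.4 CPM. BOP1 lies on chromosome 8.

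Nuclear and mitochondrial RNA stood slightly above the other cells. MALAT1, an abundant nuclear noncoding RNA, stood at 39956 against 32691 CPM with cytokine and at 31760 against 23537 CPM with vehicle. All 13 mitochondrially encoded genes were above 0 in both libraries, with medians of 0.23 and 0.16, and 0 of them was past 1.5-fold. Its part in the other differences was not tested.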
